A study of Mus musculus with 5 samples.

Results

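Igf2r encodes the cation-independent mannose-6-phosphate receptor. The stretch of the gene described here is its exons and introns that lie outside Airn, the noncoding RNA that overlaps its other end. The members were the probes of a chromosome 17 tiling array with file positions from 12090000 to 12144999, an interval of 55 kb. They numbered 389 of the 387986 probes on chromosome 17. The interval was chosen by the difference in polyA RNA level, log2(cDNA/input), between the fibroblast lines MEFB and MEFF, which is high there. The values of that contrast are therefore given below as a description, with no test.

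Igf2r carries newly made lysosomal enzymes from the Golgi to endosomes, and at the cell surface it binds and removes the growth factor IGF2. In the mouse it is an imprinted gene, expressed from the maternal copy in most tissues. Airn starts in an Igf2r intron, is transcribed from the paternal copy in the opposite direction, and silences the paternal Igf2r promoter in cis.

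The samples were RNA of MEFF and MEFB, 2 lines of spontaneously immortalised fibroblasts from FVBN mouse embryos of 12.5 dpc (days after conception). MEFF has the genotype Thp/+ and MEFB the genotype +/Thp. Each line lacks 1 copy of a stretch of at least 4.6 Mb between the genes T and Sod2, and the missing copy is of opposite parental origin in the lines. Igf2r and its imprinted cluster of 400 kb lie within it, so each line holds 1 copy of the gene. By the convention that the maternal allele is written first, which the labels do not spell out, MEFF keeps the paternal copy and MEFB the maternal copy. For MEFF, 2 arrays held total RNA and 2 held polyA RNA, while MEFB had 1 array, of polyA RNA. The labels name no other treatment. Double-stranded cDNA was labelled with Cy3 and sonicated genomic DNA of the same genotype (input) with Cy5. Such cDNA keeps no strand, and each line is a single line, so line and genotype cannot be told apart. The array covers chromosome 17 alone, and the labelled cell type was not checked against fibroblast markers.

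The level of a probe is log2(cDNA/input) minus the median of all chromosome 17 probes on that array. A level of 0 is thus the array's middle probe and not an absence of RNA. The sources used here do not give the build of the file positions. The probes were therefore placed on NCBIM37 (mm9) by their genomic DNA signal, with no cDNA value read. Placed in this way, the interval ran from 12873752 to 12928844 of chromosome 17. Igf2r lies on the minus strand at 12875272 to 12962530, and Airn on the plus strand at 12934177 to 13052988. The interval thus held exons 6 to 48 of the 48 exons of Igf2r, with the 3′ end, and stopped short of Airn. The place of its last 40 probes, exon 6 included, is less sure than that of the rest, since their genomic DNA signal fitted another place better (r of 0.731 against 0.602). Of the 389 probes, 64 were exonic (at least 25 of 50 bases in an exon), 296 intronic, 19 at exon edges and 10 downstream of the gene. A total of 33 of these 43 exons were covered by an exonic probe. The last exon, with 1721 bases, held 16 of them, and 20 exons held 1 each.

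The exons on which the description turns are printed to show what the probes read. They are the first exon of the interval (6), 3 of the brightest on the MEFB array (28, 37 and 44) and 2 of the dimmest (18 and 32). Each is given 5′ to 3′ on the transcript's strand (minus) from NCBIM37. Capitals mark the exon and lower case the 15 intron bases on each side.
Exon 6, chr17:12926663-12926792, 130 bases: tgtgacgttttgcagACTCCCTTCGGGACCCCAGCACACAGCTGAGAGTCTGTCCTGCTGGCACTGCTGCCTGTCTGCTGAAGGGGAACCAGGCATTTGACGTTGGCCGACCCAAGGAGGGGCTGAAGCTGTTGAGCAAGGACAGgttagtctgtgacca
Exon 18, chr17:12907739-12907907, 169 bases: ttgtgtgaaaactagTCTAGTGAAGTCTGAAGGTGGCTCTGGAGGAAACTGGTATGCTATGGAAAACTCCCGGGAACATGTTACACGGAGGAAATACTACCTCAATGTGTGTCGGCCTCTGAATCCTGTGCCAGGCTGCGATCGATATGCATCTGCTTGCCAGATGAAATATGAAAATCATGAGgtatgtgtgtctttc
Exon 28, chr17:12895063-12895193, 131 bases: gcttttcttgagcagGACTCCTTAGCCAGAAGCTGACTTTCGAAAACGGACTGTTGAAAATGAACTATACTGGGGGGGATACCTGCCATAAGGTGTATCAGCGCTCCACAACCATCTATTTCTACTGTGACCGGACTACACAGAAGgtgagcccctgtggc
Exon 32, chr17:12892046-12892172, 127 bases: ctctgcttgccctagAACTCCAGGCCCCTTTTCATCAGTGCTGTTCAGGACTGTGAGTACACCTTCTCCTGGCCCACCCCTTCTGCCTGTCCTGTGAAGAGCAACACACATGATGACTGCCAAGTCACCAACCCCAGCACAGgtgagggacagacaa
Exon 37, chr17:12886869-12887030, 162 bases: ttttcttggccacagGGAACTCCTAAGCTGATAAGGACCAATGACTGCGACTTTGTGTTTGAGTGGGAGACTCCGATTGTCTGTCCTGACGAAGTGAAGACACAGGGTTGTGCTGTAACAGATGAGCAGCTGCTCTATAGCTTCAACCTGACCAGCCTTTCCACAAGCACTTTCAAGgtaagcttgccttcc
Exon 44, chr17:12881182-12881369, 188 bases: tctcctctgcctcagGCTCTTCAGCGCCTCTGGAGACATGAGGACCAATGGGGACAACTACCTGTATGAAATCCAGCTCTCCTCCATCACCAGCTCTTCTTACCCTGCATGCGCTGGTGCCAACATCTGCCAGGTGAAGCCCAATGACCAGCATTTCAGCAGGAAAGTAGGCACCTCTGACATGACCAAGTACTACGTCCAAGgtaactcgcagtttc
Of the 43 exons in the interval, 42 have ag before them and gt after them in this sequence. The probes of exons 6, 28, 32, 37 and 44 lie with all 50 bases inside the exon, and in exon 18, which holds 1 probe, 39 of 50 bases are exonic.

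Exons of Igf2r were far above its introns in MEFB polyA RNA, less so in polyA RNA of MEFF, and least in total RNA of MEFF. After loess within arrays, the difference between exons and introns was 2.58 in MEFB against 2.48 and 2.06 in polyA RNA of MEFF, so the gap between the lines was much smaller. The median level of the 64 exonic probes was 5.17 on the MEFB polyA array. It was 2.2 and 3.10 on the polyA arrays of MEFF (2.65 ± 0.64, SD, n = 2) and 0.99 and 1.03 on the total RNA arrays of MEFF (1.01 ± 0.03, SD, n = 2). The 3 groups did not overlap, with MEFB above both polyA arrays of MEFF and these above both total RNA arrays. In bulk RNA of this kind, fewer cells that express a gene and less of its RNA per cell cannot be told apart.

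The introns told the groups apart less. The median level of the 296 intronic probes was −0.08 and −0.13 on the total RNA arrays of MEFF (−0.11 ± 0.04, SD, n = 2). On the polyA arrays of MEFF it was −0.17 and −0.03 (−0.10 ± 0.10, SD, n = 2), and on the MEFB array 0.49. The 4 MEFF arrays thus lay at or just under the array median and overlapped, while the MEFB array lay above all 4. The 10 probes downstream of the gene had a median of 0.33 on the MEFB array and between −0.17 and 0.07 on the MEFF arrays.

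**Figure D1:**
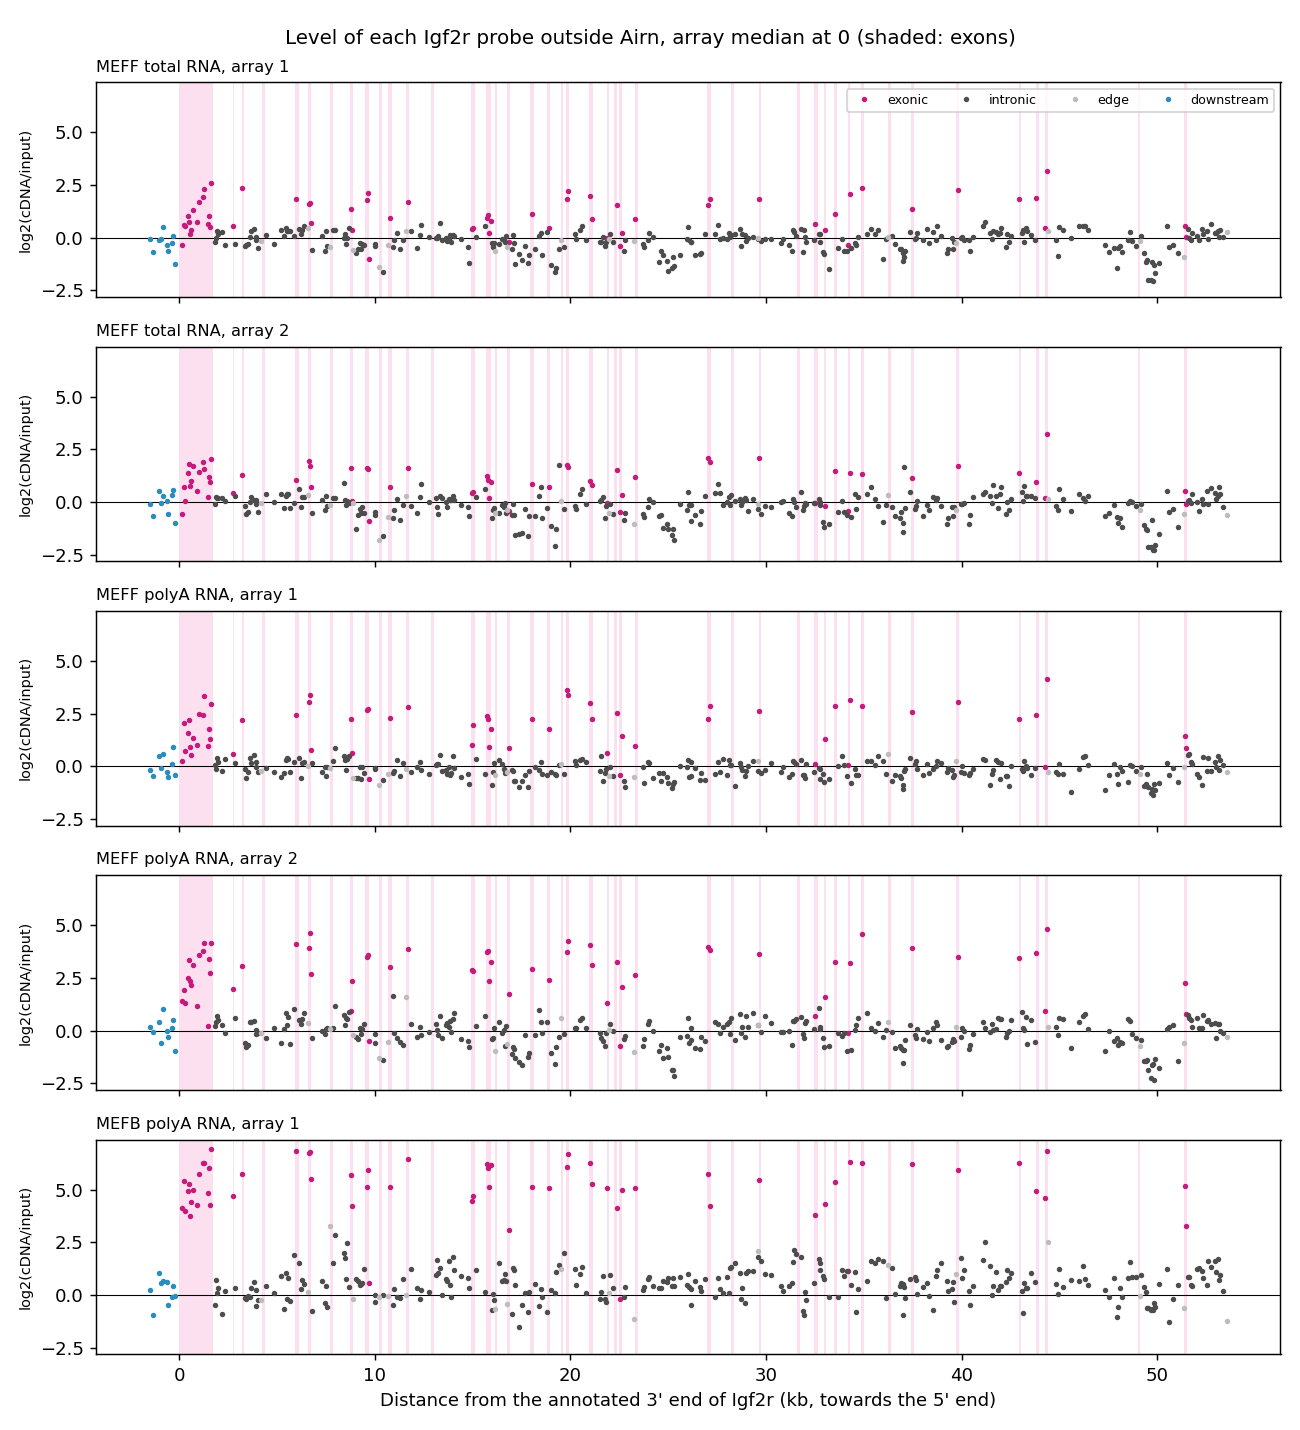
Level of each probe (y axis, log2(cDNA/input) with the array median at 0) against its distance from the annotated 3′ end of Igf2r in kb (x axis), 1 panel per array. Shaded bars are exons, and colours give the class of each probe; on the MEFB array 61 of 64 exonic probes stand above every intronic probe, while on the total RNA arrays of MEFF many overlap with the introns.

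The difference between the exonic and the intronic median was 1.07 and 1.15 on the total RNA arrays of MEFF, a mean of 1.11 ± 0.06 (SD, n = 2). It was 2.37 and 3.14 on the polyA arrays of MEFF, a mean of 2.75 ± 0.54 (SD, n = 2), and 4.68 on the MEFB array. Exons thus stood out from introns on each of the 5 arrays, MEFF included. The MEFF polyA mean exceeded the MEFF total mean by 1.65, more than the spread within either pair. This difference was 0.82 after quantile normalization between arrays and 0.94 after loess within arrays. On the MEFB array the exonic median was 2.52 above the polyA mean of MEFF, and after loess 0.91. A two-sided exact permutation test gave p = 0.333, the smallest p that 2 arrays against 2 can give. The labels do not say that the arrays of a group came from separate cultures, so any p-value here reflects no more than the array-to-array spread, and that spread may be technical. In the file headers the image numbers of the total and the polyA arrays fall in separate ranges, and the effect of any such batch cannot be told apart from that of the RNA type.

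The spread of all probes differed between arrays, and its part in these differences was not tested. The 99th percentile of cDNA intensity over its median was 5.42 and 5.33 on the total RNA arrays of MEFF, 9.17 and 22.4 on the polyA arrays of MEFF and 20.7 on the MEFB array. MEFF polyA array 2 and the MEFB array were therefore alike in range, and MEFF polyA array 1 was narrower. The exonic median stood at the 96.5th and 96.8th percentile of the array in total RNA of MEFF, at the 98.4th and 98.2nd in polyA RNA of MEFF and at the 99.7th in MEFB. By this scale-free measure the order of the groups was the same. Exact permutation of the MEFF arrays again gave the smallest possible p = 0.333, two-sided.

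The intensities themselves show the same order between the lines. The median cDNA intensity of the exonic probes was 46320 on the MEFB array, against 7668 and 5548 on the polyA arrays of MEFF. For the intronic probes it was 1634 in MEFB and 1783 and 732 in polyA RNA of MEFF. The intronic values overlapped between the lines and the exonic values did not. These intensities are not centred, and the median of the whole array was 747 in MEFB and 1568 and 569 in polyA RNA of MEFF. With the cDNA channel centred on each array's median, the intronic median of MEFB was 0.85 above that of polyA RNA of MEFF. The overlap therefore does not mean that the introns were alike relative to their arrays. On the total RNA arrays the exonic medians were 5891 and 5801 over intronic medians of 2827 and 2894, where the whole array was also brighter (medians of 2561 and 2542, against 569 to 1568 on the polyA arrays). In the interval, 3 cDNA probes of the MEFB array were at the scanner's upper limit, so their levels are lower bounds. They lie in exons 8, 28 and 41.

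**Figure D2:**
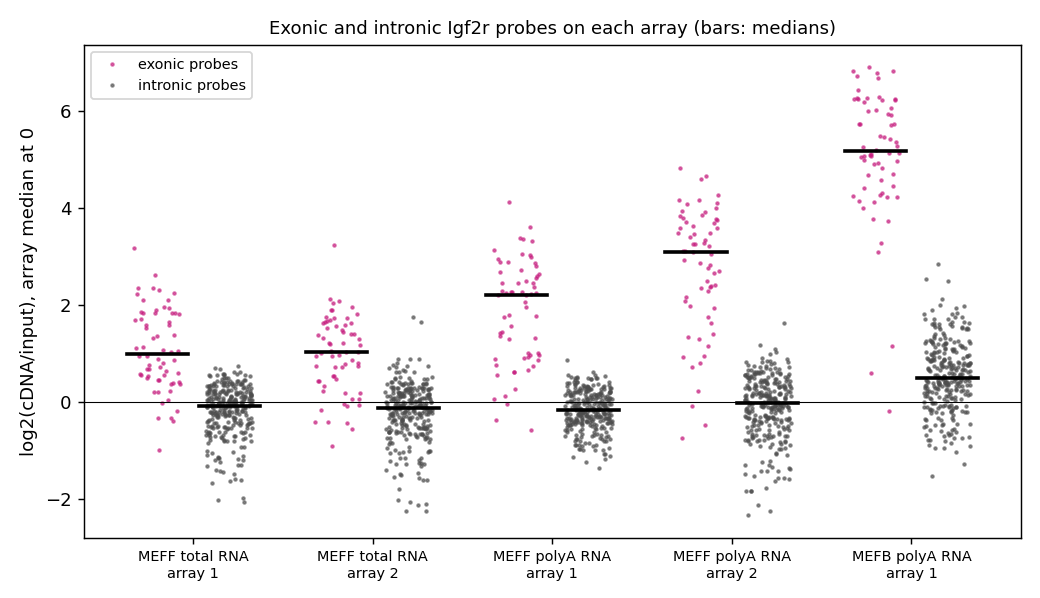
Levels of the 64 exonic and 296 intronic Igf2r probes on each array (y axis, log2(cDNA/input) with the array median at 0), 1 point per probe with a bar at the median. The exonic medians step from 0.99 and 1.03 to 2.2 and 3.10 to 5.17, while the intronic medians stay between −0.17 and −0.03 on the MEFF arrays and reach 0.49 on the MEFB array.

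Counted against the whole array, 61 of 64 exonic probes were in the brightest 5% of the MEFB array and 57 in the brightest 1%. On the polyA arrays of MEFF 52 and 52 exonic probes were in the brightest 5%, and on the total RNA arrays 36 and 38. Of the 296 intronic probes, 33 reached that 5% on the MEFB array and between 0 and 5 on the MEFF arrays. The interval was chosen for MEFB levels above those of MEFF polyA RNA. Nothing is therefore read from these counts against the 5% of the whole array.

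Probe by probe, the MEFB level exceeded all 4 MEFF arrays at 64 of 64 exonic probes and at 210 of 296 intronic probes (70.9%), against 27.9% of all chromosome 17 probes. As the interval was chosen for this contrast, nothing is read from these shares. Each MEFF polyA array exceeded each total RNA of MEFF array at 55 of 64 exonic probes (85.9%). The same order held at 73 of 296 intronic probes (24.7%) and at 22.1% of all chromosome 17 probes, so the intronic share lay near the background and the exonic share far from it. This comparison shares the polyA arrays of MEFF with the contrast that chose the interval.

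Along the gene, the exon medians of an array lay close together. The median level of probes in exons 6 to 27 was 5.14 on the MEFB array, and in exons 28 to 48, nearer the 3′ end, 5.21. On the polyA arrays of MEFF these medians were 2.27 and 3.23 in exons 6 to 27 and 2.01 and 2.99 in exons 28 to 48. On the total RNA arrays they were 1.26 and 1.10 against 0.94 and 1.01. The RNA measured thus held exons throughout the interval, and not the 3′ end alone. The introns of MEFB had medians of 0.41 in the probes nearer the 3′ end and 0.61 in those nearer the 5′ end, both above 0.

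The last exon, which holds the stop codon and the 3′ untranslated region, had 16 probes and allowed a look within 1 exon. Its mean level was 5.09 on the MEFB array, 1.62 and 2.59 on the polyA arrays of MEFF and 1.00 and 1.05 on the total RNA arrays. The 8 probes nearer the 3′ end had medians of 4.67 in MEFB, 1.14 and 2.27 in polyA RNA of MEFF, and 0.57 and 0.89 in total RNA of MEFF. The 8 probes on the 5′ side had medians of 5.87, then 2.13 and 3.49, then 1.36 and 1.31. On each of the 5 arrays the probes nearer the 3′ end were the dimmer ones, a comparison made after the values were seen. Single probes of this exon ranged from 3.73 to 6.92 on the MEFB array.

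By exon, the mean probe level of the 33 covered exons ran from 2.39 to 6.84 on the MEFB array, with a median of 5.09. On the polyA arrays of MEFF it ran from 0.13 to 3.49 and from 0.67 to 4.6, with medians of 2.2 and 3.05. On the total RNA arrays it ran from −0.18 to 2.36 and from −0.41 to 2.11, with medians of 1.11 and 0.95. All 33 exons were higher in MEFB than on each MEFF array, and after loess 25 were. As the interval was chosen for MEFB levels above those of MEFF polyA RNA, nothing is read from these counts. Of the 33 exons, 23 and 20 passed the 95th percentile of the array in total RNA of MEFF, 29 and 30 in polyA RNA of MEFF and 33 in MEFB.

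The 5 brightest exons on the MEFB array were 44, 37, 28, 43 and 10, which lie at both ends and in the middle of the interval. The value of exon 28, and those of exons 8 and 41, include a probe at the scanner's limit, so their ranks could be higher. Exon 44 had levels of 6.84 in MEFB, 2.45 and 4.11 in polyA RNA of MEFF and 1.83 and 1.03 in total RNA of MEFF. Exon 37 had levels of 6.44, of 2.80 and 3.87, and of 1.71 and 1.64 in the same order. Exon 28 had levels of 6.39, of 3.49 and 4.00, and of 2.03 and 1.71. In each of these exons the MEFB, MEFF polyA and MEFF total arrays did not overlap. Exon 43 reached 6.33 in MEFB over 2.40 and 3.76 in polyA RNA of MEFF and 1.31 and 1.47 in total RNA. Exon 10 reached 6.25 over 2.27 and 3.48, and 1.84 and 1.40, in the same order.

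The 5 dimmest exons on the MEFB array were 24, 32, 15, 18 and 40. Of these, exons 32 and 18 were read by 1 probe each. Exon 32, with its sequence above, had 3.10 in MEFB, 0.89 and 1.76 in polyA RNA of MEFF and −0.18 and −0.41 in total RNA of MEFF. It was thus below the array median in total RNA and above it in polyA RNA. Exon 18 had 3.79 in MEFB, 0.13 and 0.71 in polyA RNA of MEFF and 0.63 and −0.06 in total RNA. In exon 18 the 4 MEFF arrays overlapped, although MEFB stood clear of them. Exon 6, the first of the interval, had 4.24 in MEFB, 1.16 and 1.55 in polyA RNA of MEFF and 0.29 and 0.23 in total RNA. After loess, MEFB was below the polyA mean of MEFF in exon 32 (a difference of −0.93) and in exon 6 (−0.32).

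The low means of exons 15, 24 and 40 each rested on 1 probe. In exon 15 the probe with 32 exonic bases had 1.15 on the MEFB array, and the probe that lies wholly inside had 6.30. In exon 40 the probe with 31 exonic bases had 0.59, and the wholly exonic ones 5.13 and 5.93. These 2 dim probes cross an exon end. In exon 24 the dim probe (−0.18) is placed wholly inside, and a neighbour with 26 exonic bases had 4.97. Exon 24 lies 150 to 250 bases from where the placed shift changes by 75 bases. With the shift of the neighbouring stretch, the dim probe would hold 0 exonic bases and the bright one 50. Its rank as the dimmest exon therefore depends on the placing.

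**Figure D3:**
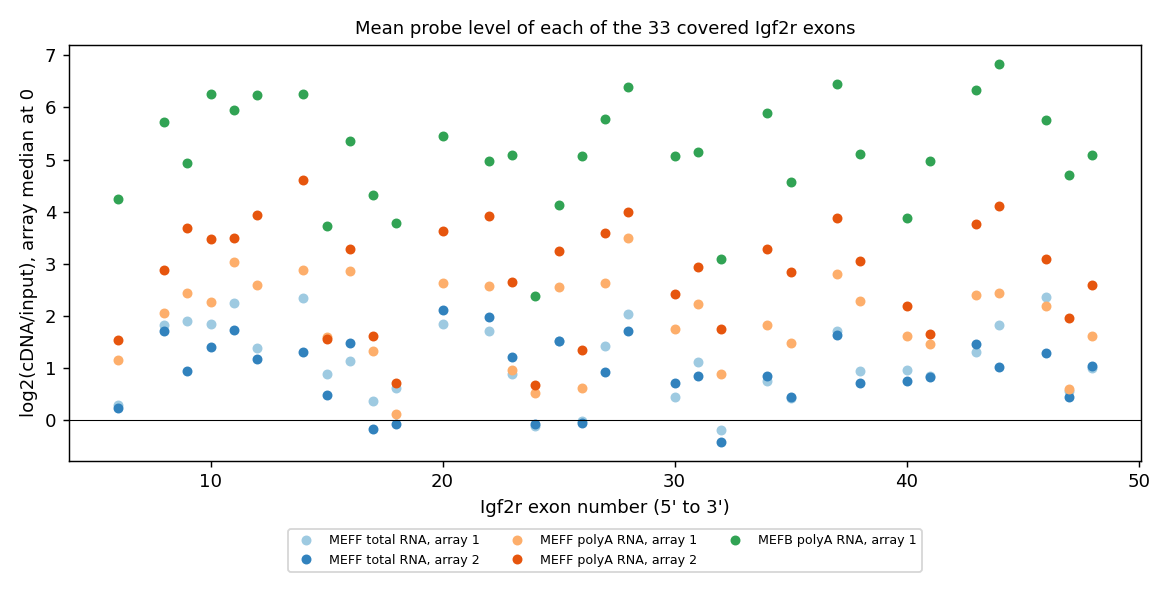
Mean probe level of each of the 33 covered Igf2r exons (y axis, log2(cDNA/input) with the array median at 0) by exon number from 5′ to 3′ (x axis), 1 colour per array. As deposited, the MEFB points are above those of all 4 MEFF arrays at each of the 33 exons (at 25 after loess), and bright and dim exons alternate along the gene.

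The pattern of bright and dim exons was shared between arrays. Over the 33 exons, Pearson's r of the exon levels was 0.90 between the polyA arrays of MEFF and 0.84 between the total RNA arrays. The MEFB array correlated at 0.71 and 0.81 with the polyA arrays of MEFF and at 0.71 and 0.68 with the total RNA arrays. These values describe exons of 1 gene read by the same probes, and are no evidence beyond that. The G and C content of the placed bases bore little relation to level among the 64 exonic probes (r between −0.21 and 0.05). Probes with a stronger input signal had lower levels, with r of −0.52 on the MEFB array and between −0.47 and −0.26 on the others; the input is the denominator of the level. Exonic and intronic probes were alike in median G and C content, at 52% and 50%, and close in median input level, at 0.15 and 0.31.

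The MEFB level exceeded the MEFF polyA mean by 1.22 (exon 25) to 4.10 (exon 26), with a median of 2.84 over the 33 exons. Exons 25 and 26 were read by 1 probe each. Exon 25 had 4.12 in MEFB and 2.56 and 3.25 in polyA RNA of MEFF. Exon 26 had 5.07 in MEFB and 0.62 and 1.34 in polyA RNA of MEFF. In total RNA of MEFF, exon 25 had 1.53 and 1.52, and exon 26 had −0.02 and −0.05. Both lie within 500 bases of the same change of shift and were exonic under either shift, with 44 or 50 bases for exon 25 and 28 or 35 for exon 26.

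Only 3 exonic probes were below a level of 2 on the MEFB array, those named in exons 15, 24 and 40. Conversely, 4 of 296 intronic probes reached that level. The highest, 104 bases from exon 42, had 2.85 in MEFB, 0.87 and 1.17 in polyA RNA of MEFF and 0.36 and 0.17 in total RNA. A probe 158 bases from exon 41 had 2.49 in MEFB, and 1 at 89 bases from exon 19 had 2.12. The last of the 4 lay deep in an intron, 1279 bases from exon 11. It had 2.54 in MEFB, 0.30 and 0.15 in polyA RNA of MEFF and 0.75 and 0.48 in total RNA, so within MEFF it was higher in total RNA.

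Without the annotation, the probes were also divided by brightness on the MEFB array alone. Bright probes were those at or above the 95th percentile of the array (a level of 1.48), and dim ones those below the 75th (0.51). This gave 97 bright probes, 172 dim and 120 between. Of the bright probes, 61 were exonic, 33 intronic and 3 at exon edges, while the dim probes held 152 intronic and 1 exonic. The members just inside the bright class had levels of 1.5, 1.51 and 1.51, and those just outside 1.42, 1.42 and 1.40. The bright probes formed 47 runs along the interval, of which 28 were single probes and 32 held an exonic probe. The longest, of 16 probes over 1485 bases, lies in the last exon.

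On the MEFF arrays, which did not set these classes, bright probes also exceeded dim ones. The bright median minus the dim median was 0.78 and 0.86 in total RNA of MEFF and 1.20 and 2.16 in polyA RNA of MEFF. The pairs did not overlap, and the difference of their means was 0.86 (exact permutation test, two-sided, p = 0.333, again the smallest possible). Without MEFF polyA array 2 this difference was 0.38, after loess 0.34 and with bright set at the 90th percentile 0.14; with bright set at the 99th percentile it was 1.55. The value on the MEFB array, 4.37, is set by the definition.

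The 5 runs with the highest MEFB mean were those of exons 37 and 43, given above, and of exons 15, 14 and 10. The run of exon 15 had 6.30 in MEFB, 3.14 and 3.21 in polyA RNA of MEFF and 2.10 and 1.38 in total RNA. That of exon 14 had 6.25, then 2.89 and 4.6, then 2.35 and 1.32. All but 1 of these 5 runs were single probes; that of exon 43 had 3.

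Averaged over all probes, exons and introns together, the interval hardly stood out on the MEFF arrays. Its mean level was 0.03 and −0.03 in total RNA of MEFF (0.00 ± 0.04, SD, n = 2), 0.16 and 0.36 in polyA RNA of MEFF (0.26 ± 0.14, SD, n = 2) and 1.27 in MEFB polyA RNA. The stretch of 80 kb that starts 5 kb further on lies mostly in Airn. Of its 393 probes, 14 were placed before Airn, and 178 lie in the 5′ part of Igf2r too. It had mean levels of 2.09 and 2.04 in total RNA of MEFF, 1.85 and 2.89 in polyA RNA of MEFF and 0.09 in MEFB. The lines were thus in opposite order on either side. The 5 kb between them had levels from −0.34 to −0.08 on the MEFF arrays and of 0.14 on the MEFB array.

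In windows of 5 kb, the 11 windows of the interval had MEFB levels from 0.62 to 2.54. The window with the last exon and the downstream probes was the highest on every array, with 0.42 and 0.49 in total RNA of MEFF, 0.79 and 1.30 in polyA RNA of MEFF and 2.54 in MEFB. It held 18 exonic probes. The window farthest to the 5′ side, with 2 exonic probes, was the lowest on each of the 5 arrays and had −0.31 and −0.42 in total RNA of MEFF, −0.20 and −0.29 in polyA RNA of MEFF and 0.62 in MEFB. The MEFB array was above all 4 MEFF arrays along the interval. The interval was chosen for MEFB levels above those of MEFF polyA RNA, so nothing is read from that order.

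**Figure D4:**
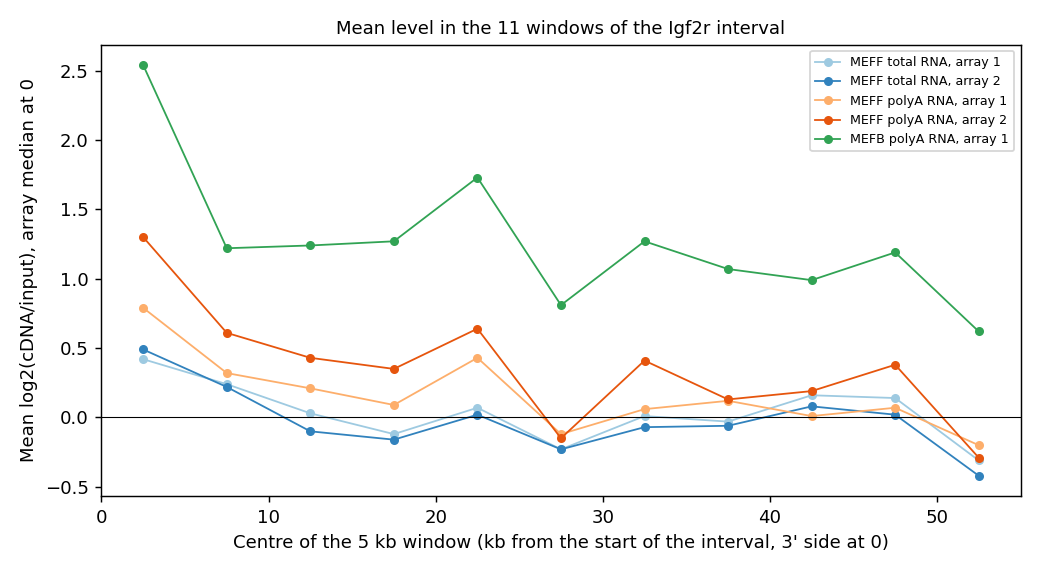
Mean level in each of the 11 windows of 5 kb (y axis, log2(cDNA/input) with the array median at 0) against the window's centre in kb from the 3′ side of the interval (x axis), 1 line per array. The MEFB line is above the others throughout, from 0.62 to 2.54, and the MEFF total and polyA lines lie close to each other in the windows to the right.

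Total minus polyA RNA of MEFF, fitted with limma over all 15383 windows, ranged from −0.59 to 0.02 over the 11 windows, with a median of −0.23. None of the 11 passed an adjusted p of 0.05 (lowest adjusted p = 0.573, limma with Benjamini-Hochberg adjustment). Over chromosome 17 the fit called 0 windows (0.0%), with 1189 at an unadjusted p under 0.05, and after normexp background correction 518 (3.37%), of which 0 were in the interval (lowest adjusted p = 0.108). The calls depended on the polyA arrays of MEFF: without array 1, 7 of the 11 windows were called lower in total RNA, and without array 2, 4 were. Those fits also called much of the chromosome, 29.2% of all windows without array 1 (17.3% lower) and 20.8% without array 2 (16.2% lower). In those fits the polyA group has 1 array, whose variation is taken to equal that of the rest. By probe, 63 of 64 exonic probes (59 after normexp) had lower levels in total than in polyA RNA, with a median difference of −1.36. None passed the adjusted threshold (lowest adjusted p = 0.0794, limma), while 49 were lower and 0 higher at an unadjusted p under 0.05, which 8.0% of all chromosome 17 probes reached in either direction. After normexp 27 were lower and 0 higher at that p (lowest adjusted p = 0.46, limma). For the 296 intronic probes the median difference was −0.09, with 176 lower in total RNA, and 7 lower and 9 higher at that p. Over all chromosome 17 probes the median difference was −0.04, and the share of them lower in total RNA was not computed.

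MEFB minus polyA RNA of MEFF, the contrast that chose the interval, is given as a description. It ranged from 0.76 to 1.49 over the 11 windows, all higher in MEFB. Of these, 0 passed as deposited and 10 after normexp, with 1 (0.0065%) and 488 (3.17%) of all windows called. Nothing is read from these counts.

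Other genes of the region between T and Sod2 lie in the same deletion, so each line holds 1 copy of them too. Of 15 genes looked for, 7 had at least 3 placed exonic probes and are described. Map3k4, a stress-response kinase, had exonic medians of 1.22 and 1.37 in total RNA of MEFF, 2.28 and 3.53 in polyA RNA of MEFF and 3.09 in MEFB. Agpat4, an acyltransferase of phospholipid synthesis, had 0.70 and 0.73, then 2.04 and 2.70, then 1.96. In both genes the polyA arrays exceeded the total RNA arrays, as for Igf2r, but MEFB lay among or below the polyA arrays of MEFF. Qk, which encodes an RNA-binding protein, had 1.10 and 1.25, then 1.13 and 2.27, then 3.33. Its MEFB level was above all 4 MEFF arrays.

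The remaining 4 genes were at or below the array median or close to it. Slc22a3, an organic cation transporter gene of the Igf2r cluster that is imprinted in placenta, had exonic medians from −0.26 to −0.05 over the 5 arrays. Plg, the plasminogen gene, ranged from −0.53 to −0.24, Park2 from −0.27 to −0.04 and T from −0.18 to 0.06. Among these 7 genes, MEFB was above every MEFF array in 2 (Qk and Park2) and below every one in 1 (Plg). For Park2 the margin was small, with −0.04 in MEFB against −0.27 to −0.10 on the MEFF arrays. For Plg it was −0.53 in MEFB against −0.43 to −0.24. The share of other genes with such an order was not computed, so nothing is read from these counts. The number of exonic probes was 14 for T and 42 for Qk and 40 for Map3k4.

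**Figure D5:**
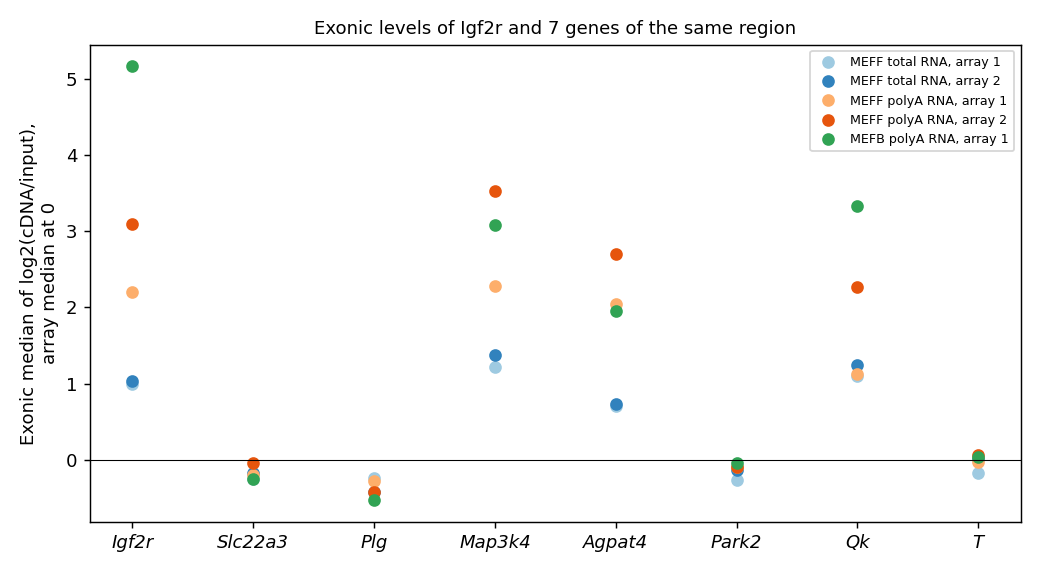
Median level of exonic probes (y axis, log2(cDNA/input) with the array median at 0) for Igf2r and the 7 other genes of the region with at least 3 placed exonic probes (x axis), 1 point per array. Igf2r has the highest MEFB point (5.17), and for Map3k4 and Agpat4 the MEFB points (3.09 and 1.96) lie among or below the MEFF polyA points.

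Elsewhere on chromosome 17, the windows of 5 kb whose levels on the 5 arrays were nearest to the interval's means (Euclidean distance, over 15320 windows) were 5 that lay at distances of 0.141 to 0.236. The nearest had levels of 0.03 and 0.05 in total RNA of MEFF, 0.09 and 0.34 in polyA RNA of MEFF and 1.35 in MEFB. The input signal gave an accepted place on NCBIM37 to 1 of the 5, which overlapped the gene 3110082D06Rik. Its levels were −0.04 and −0.06, then 0.23 and 0.42, then 1.08. The other 4 are not named.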

How the data were processed

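The authors deposited raw probe intensities of both channels, read from the scans in NimbleScan 2.2.34 per the file headers. These carried no background subtraction or normalization, judging from the values. The members and lists were chosen with earlier results of these data known.

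From these, log2(cDNA/input) was centred on the median of each array. Window means (5 kb, 8 or more probes) were compared with limma 3.58.1 (R 4.3.3) on 5 arrays and 3 group means, with Benjamini-Hochberg adjustment over 15383 windows. The fit has 2 residual degrees of freedom. The number of arrays limits the precision.

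The file positions did not match NCBIM37 (r of input signal with that predicted from base composition 0.096). A composition model trained on 18729 probes of blocks outside the interval and its flanks of 200 kb placed the probes at shifts of 783741 (180 probes) and 783816 bases (209 probes), where r was 0.573. Of 175 blocks of 25 kb in the region, 147 had z of at least 5, and in 146 of these the best shift lay within 100 bases of a shift used. The other one (z 5.76) holds the last 40 probes of the interval, those of exon 6 included, and its best shift was 950284 bases. These 40 probes fitted that shift better (r 0.731) than the shift used, that of their neighbours (r 0.602), so the place of exon 6 is not settled. On the MEFB array the cDNA pattern matched the annotated exons best at shifts 1 and 9 bases away. Windows most like the interval were placed with the same composition model, by the best shift of the 50 kb around each. For these the best z had also to stand clear of the next best, a rule not applied to the blocks. The accepted window had a z of 9.25 over a next best of 4.24, and one with 5.62 over 4.35 was not accepted.

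Exons named were the 5 highest and 5 lowest on the MEFB array and the first and last of the interval. Exons are those of the GENCODE M1 annotation of NCBIM37. Of the listed genes of the region, 7 had no placed probe and 1 had intronic probes only, and another is not reported here.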

Additional observations from a re-analysis of the deposited data

How the results depend on the processing

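No paired analysis was possible because the labels carry no replicate numbers that the groups share. Exon minus intron, MEFF polyA against total RNA, kept its direction under all 17 alternatives run, between 0.82 and 2.03 (1.65 as reported). Bright minus dim did so under all 14, between 0.14 and 1.60 (0.86 as reported). Leaving out 1 MEFF array could not change either direction, because the pairs of arrays do not overlap. The value of 2.03 came from leaving out MEFF polyA array 1. The bright minus dim values of 1.56 and 1.60 came from classes set on a polyA array of MEFF, so they are partly set by the definition. With 1 MEFF array left out, a group is a single array, so its counts are not set beside the rest. The median difference of the 11 windows, MEFF total minus polyA RNA, was then −0.378 to −0.164 (−0.233 with all arrays). After normexp it was −0.492 to −0.132 (−0.213 with all arrays). The count of windows of the interval called between MEFF total and polyA RNA was 0 under the other alternatives. For MEFB minus MEFF polyA RNA it was 10 after normexp, 8 after loess, 11 after quantile normalization and 9 with a trended prior, where 3.17%, 2.91%, 6.81% and 2.63% of all windows were called. By probe it was 29 of 389 (0.376% of all probes), and 0 by probe after normexp. Without either polyA array of MEFF both groups are single arrays, so no count is read there. The median difference of the 11 windows, MEFB minus MEFF polyA, was 0.901 without array 1 and 1.03 without array 2 (0.952 with all arrays). The mean level of the interval, MEFB minus MEFF polyA, was 1.01, and it was 1.27 after normexp, 0.70 after loess, 0.81 after quantile normalization, 1.18 from the cDNA channel alone and 0.64 as a median of probes. The exonic difference of 2.52 became 0.91 after loess and 3.17 from the cDNA channel alone. The intronic difference of 0.59 became 1.03 after normexp, 0.49 after quantile normalization and 0.85 from the cDNA channel alone.

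After loess, exon minus intron stood at 2.48 and 2.06 for polyA RNA of MEFF and at 2.58 for MEFB, and MEFB minus MEFF polyA turned to −0.32 in exon 6 and −0.93 in exon 32. The cause was not tested. Of 83 values of the 12 named exons under 7 alternatives, 54 moved by less than the spread between arrays, 27 moved by more and 2 reversed. Leaving out 1 polyA array of MEFF always moves the mean of the pair by less than the SD of the pair. Those values could only fall among the 54, so no stability is read from that count. The GC range, exon edges, placing, unaccepted block and per-probe alternatives were chosen after seeing the data.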
